A study of Juglans regia with 15 samples.

Results

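The comparison of the walnut endopleura at 119 days after pollination (DAP) with the endopleura at 91 DAP used 6 of the 15 RNA-seq libraries of the series, 3 at each of both stages. All nuts came from the walnut cultivar Linzaoxiang (Juglans regia), no treatment was given, and each library held the endopleuras of 7 nuts mixed before extraction. Of the 39414 genes in the table, 22310 had at least 1 FPKM (fragments per kilobase of transcript, scaled to the mapped fragments of the library) in at least 3 of the 15 libraries and were tested. A gene was called changed where limma gave a p-value below 0.05 after Benjamini-Hochberg adjustment over the 22310 genes, and differences are given on the log2(FPKM + 1) scale as 119 DAP minus 91 DAP, a scale that compresses the changes of weakly expressed genes. The p-values measure the spread between pooled libraries of 1 cultivar, and whether nuts of different libraries came from different trees is not stated in the sources used here.

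The endopleura is the thin seed coat that encloses the walnut kernel. It is known for its polyphenols. Among them are condensed tannins, which plants build through the flavonoid pathway. Chalcone synthase makes the first committed step of this pathway. Reductases near its end, among them anthocyanidin reductase (ANR), supply the flavan-3-ol units of the condensed tannins. Inside the seed coat the embryo stores protein and oil in its cotyledons. The seed coat lies against the embryo, so tissue collected as endopleura can carry embryo RNA.

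Libraries of the same stage were more alike (Pearson r of 0.964 to 0.989 across genes) than libraries of different stages (0.918 to 0.954), and genes are not independent replicates in these values. Absolute depth is unknown because FPKM values were deposited. Relative depth, read from the steps between values under 0.1 FPKM, ran from 0.939 to 1.11 of the median of the 6 libraries. JrANR and the chalcone synthase gene, listed here for the seed coat, were detected in each of the 6 libraries, a detection that does not separate seed coat from embryo. The genes of the embryo list (glutelins JreChr03G12610 and JreChr03G12612, the oleosin JreChr12G10222, the late embryogenesis abundant gene JreChr01G10579 and the oleate desaturase JrFAD2) were detected in each of them as well, none at 0. These 5 genes together held 0.661, 1.97 and 0.332% of the FPKM sum in replicates 1, 2 and 3 of 119 DAP, against 1.01, 0.504 and 0.749% in those of 91 DAP. The 119 DAP replicate 2 library stood apart from the others of its stage in this measure. It had 553 genes more than 1 log2 unit above the mean of the other 119 DAP libraries and 417 more than 1 log2 unit below it, and its median gene was 0.145 log2 units lower. At 91 DAP, replicate 3 stood farthest from its group, with 519 genes above and 616 below by the same measure. The standard deviation of these log2 differences over genes was 0.497 for 91 DAP replicate 3 and 0.460 for 119 DAP replicate 2. It was 0.445 for 119 DAP replicate 3, which had 181 genes above and 512 below by the same measure. Leaving out 119 DAP replicate 2 was set for this comparison and does not follow from these values. Results are given with all libraries and again without 119 DAP replicate 2. The part of embryo RNA in the differences was not tested.

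With all libraries, 4082 of the 22310 genes (18.3%) differed between the stages, 2152 higher at 119 DAP (9.65%) and 1930 lower (8.65%). The median absolute difference of the called genes was 0.80 on the log2 scale. Differences of at least 1 were found for 1023 of the higher and 398 of the lower genes, so large rises outnumbered large falls. The balance of all calls depended on the scaling between libraries, since rises were 52.7% of the calls as deposited but 44.0% with libraries rescaled to equal sums and 43.8% with quantile normalization. The values of 119 DAP and 91 DAP did not overlap for 3908 of the 4082 called genes, whereas 31.3% of all tested genes had no overlap. The counts depended on single libraries. Without 91 DAP replicate 2 the number of called genes was 2612, with 1402 higher and 1210 lower, and in a fit of only the 6 libraries it was 1820.

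Without 119 DAP replicate 2, 3443 genes (15.4%) were called, 2108 higher (9.45%) and 1335 lower (5.98%). Both fits called 2930 genes (13.1%), of which 1679 were higher (7.53%) and 1251 lower (5.61%). Thus 78.0% of the rises but 64.8% of the falls kept their call. The fit without the library lost 473 rises and 679 falls and gained 429 rises and 84 falls, and no gene called with all libraries changed direction. Of the 473 lost rises, 119 DAP replicate 2 was the highest library of its stage for 303 (64.1%), whereas it was the highest for 25.9% of the kept rises and 23.4% of all tested genes. Of the 679 lost falls it was the lowest library for 486 (71.6%), and it was the lowest for 45.4% of the kept falls and 53.1% of all tested genes. Lost calls had smaller differences. The median absolute log2 difference was 0.76 for lost rises and 1.03 for kept rises, and 0.53 for lost falls and 0.78 for kept falls. Lost calls were picked by leaving this library out, and calls near the threshold are lost most easily. Both contrasts thus follow in part from the selection and are a description.

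**Figure D1:**
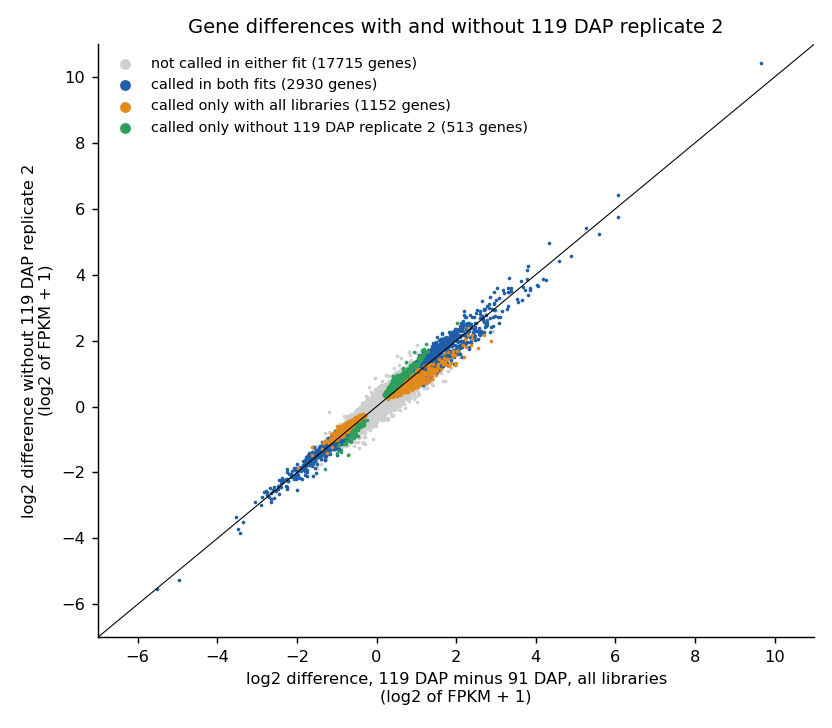
Each point is 1 of the 22310 tested genes, with its log2 difference (119 DAP minus 91 DAP, log2 of FPKM + 1) in the fit of all libraries on the x axis and in the fit without 119 DAP replicate 2 on the y axis, and the line marks equal values. The 2930 genes called in both fits reach farthest from 0 in both directions, and the 1152 genes called only with all libraries and the 513 called only without the library lie close to the centre.

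Among annotated genes whose call was lost, the largest difference was that of JreChr01G10940, annotated as a cysteine proteinase inhibitor. It had 47.2, 173 and 33.9 FPKM at 119 DAP, against 27.6, 24.3 and 5.87 FPKM at 91 DAP. Replicate 2 was far above the other 119 DAP libraries, and the log2 difference of 1.96 (adjusted p = 0.0368) became 1.26 without it (adjusted p = 0.141). The call of this gene was also lost when 119 DAP replicate 1 or 91 DAP replicate 3 was left out. Another was JreChr01G13933, a glycosyl hydrolase of the chitinase family 18, with a difference of 1.80 (adjusted p = 0.0183, and 0.0592 without 119 DAP replicate 2). Its call was also lost when 119 DAP replicate 1, 91 DAP replicate 2 or 91 DAP replicate 3 was left out. The last was JreChr14G11480, annotated as MRH1, a receptor-like kinase of Arabidopsis root hairs, with 1.65 (adjusted p = 0.0137, and 0.0559 without 119 DAP replicate 2). Calls were gained by JreChr08G11584, a PHD-finger protein, which had 2.52, 0.103 and 2.34 FPKM at 119 DAP, against 0.0136, 0.0463 and 0.0250 FPKM at 91 DAP. Here replicate 2 alone lay close to the 91 DAP level. JreChr03G11982, a MYB factor (1.19 with all libraries and 1.58 without the library), and JreChr10G12195, annotated only as an expressed protein (1.10 and 1.58), were gained in the same way.

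Genes for the entry and for a late step of the flavonoid pathway rose at 119 DAP. Of the 17 genes annotated to flavonoid, isoflavonoid or anthocyanin synthesis in the copies of the study's gene tables used here, 10 passed the FPKM filter, 4 of them rose and none fell, both with all libraries and without 119 DAP replicate 2, against 9.65% of all tested genes higher with all libraries. Part of these copies was shortened, so this list and those that follow can miss members. The median log2 difference of the 10 genes was 0.69, and that of all tested genes was 0. JrANR (JreChr09G12363; chromosome 9, bases 7498722 to 7501474 in the coordinates of the table), homologous to the Arabidopsis reductase gene BANYULS, had 342, 181 and 344 FPKM at 119 DAP, against 103, 110.2 and 109 FPKM at 91 DAP. Each 119 DAP library was above each 91 DAP library, with replicate 2 the lowest of 119 DAP. The log2 difference was 1.36 ± 0.22 (SE, n = 3 each, adjusted p = 0.000844), and it was 1.67 without replicate 2 (adjusted p = 4.32e-05). JrANR had 194, 187 and 189 FPKM at 63 DAP, so its level had fallen between 63 and 91 DAP. The chalcone synthase gene JreChr02G10304, for the entry step of the pathway, had 553, 223 and 529 FPKM at 119 DAP, against 49.4, 52.3 and 129 FPKM at 91 DAP. Its replicate 3 at 91 DAP was well above the other 91 DAP libraries, and the groups still did not overlap. The log2 difference of this gene was 2.52 ± 0.38 (SE, n = 3 each, adjusted p = 0.000515), or 2.94 without 119 DAP replicate 2. Its mean had also fallen before, from 187 FPKM at 63 DAP to 77.0 FPKM at 91 DAP.

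A pair of genes on chromosome 11, JreChr11G10846 and JreChr11G10794, is annotated to dihydroflavonol-4-reductase, an enzyme that supplies leucoanthocyanidins. Both match the same Arabidopsis gene (AT2G23910), and whether either acts as this reductase was not tested. JreChr11G10846 had 60.6, 40.9 and 64.8 FPKM at 119 DAP, against 16.1, 18.4 and 18.9 FPKM at 91 DAP. JreChr11G10794 had 10.1, 5.95 and 11.9 FPKM at 119 DAP, against 2.54, 0.584 and 1.10 FPKM at 91 DAP. Both rose, by log2 differences of 1.56 (adjusted p = 0.000115) and 2.14 (adjusted p = 0.000444), and replicate 2 was the lowest 119 DAP library for both, as for JrANR and chalcone synthase. The reads of near-identical copies can be divided between them by the quantification, so the levels of such pairs are uncertain. The remaining 6 tested genes of the list did not pass the test. The most abundant of them, JreChr15G10250, an isoflavone reductase homolog, had 1026, 710.5 and 1165 FPKM at 119 DAP, against 1300.3, 1395 and 1275 FPKM at 91 DAP and a difference of -0.48 (adjusted p = 0.27). JreChr03G12442 is annotated to leucoanthocyanidin dioxygenase (LDOX), an enzyme that makes the substrate of ANR, and it matches the Arabidopsis gene AT1G49390. Whether JreChr03G12442 acts in this step was not tested. It had 5.30, 2.53 and 4.08 FPKM at 119 DAP, against 3.30, 5.92 and 3.37 FPKM at 91 DAP. Its groups overlapped, and its difference was -0.07.

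**Figure D2:**
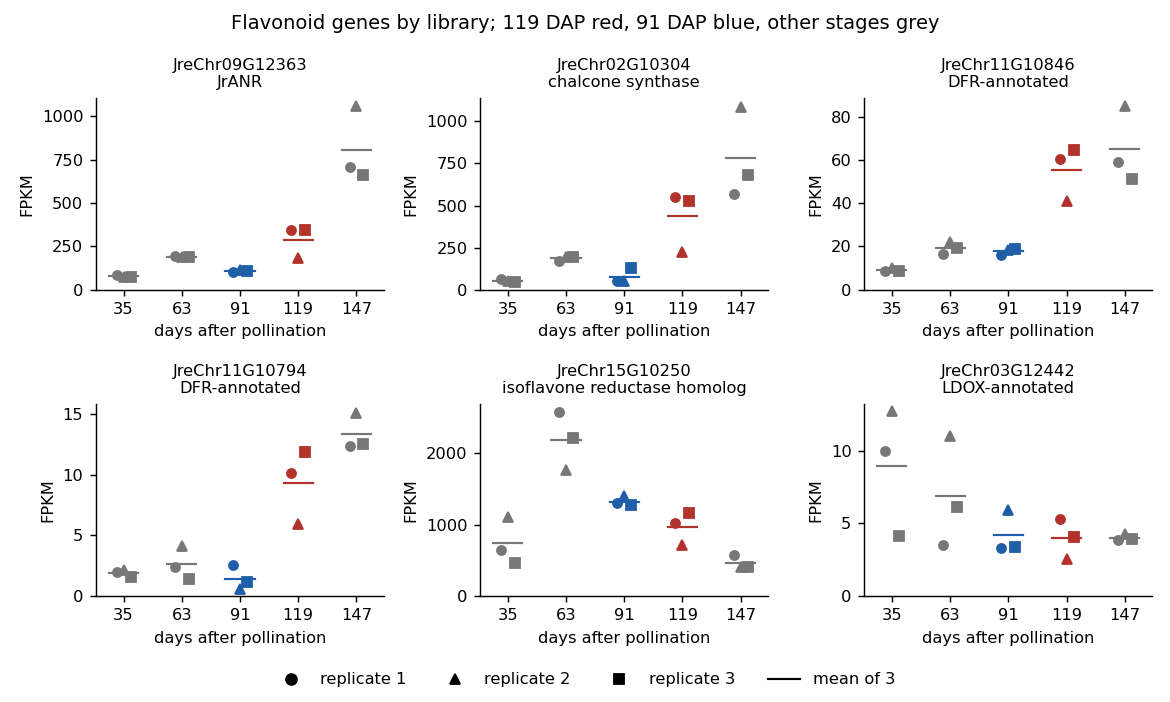
FPKM of 6 flavonoid genes by library (y axis, from 0) at the 5 stages in days after pollination (x axis), with symbols for replicates and a line for the mean of 3 libraries. JrANR, chalcone synthase and both genes annotated to dihydroflavonol-4-reductase (DFR) are higher at 119 DAP (red) than at 91 DAP (blue) in each library. The gene annotated to LDOX overlaps between the stages.

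Other homologs of JrANR had smaller differences on the log2(FPKM + 1) scale, which compresses those at low levels. JreChr02G11482 rose by a log2 difference of 1.07 (adjusted p = 0.00194) at low levels, with 4.41, 4.63 and 5.48 FPKM at 119 DAP, against 2.56, 1.71 and 1.21 FPKM at 91 DAP. JreChr02G11484 had 1.54, 0.903 and 0.996 FPKM at 119 DAP, against 0.183, 0.304 and 0.0613 FPKM at 91 DAP, a ratio of means of 6.27 that exceeded the 2.69 of JrANR. It was called with all libraries (0.85, adjusted p = 0.0293), but not when 119 DAP replicate 1 or any one of the 91 DAP libraries was left out. JreChr07G11524 had 203, 121 and 252 FPKM at 119 DAP, against 137, 151 and 135 FPKM at 91 DAP. It did not pass the test with all libraries (0.38, adjusted p = 0.29) and passed without 119 DAP replicate 2 (0.68, adjusted p = 0.0335). At 63 DAP the means of JreChr02G11482, JreChr02G11484 and JreChr07G11524 were 4.33, 1.72 and 365 FPKM, above those at 91 DAP. For JreChr02G11484 and JreChr07G11524 they were also above the 119 DAP means of 1.15 and 192 FPKM.

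The genes with the largest rises had no entry in the annotation tables used here. Of the 4082 called genes, 3756 were in none of these tables, of which some copies were shortened, and the identifiers of the table had no match in RefSeq, so these genes are given by identifier and position only. JreChr07G12714 (chromosome 7, bases 6562344 to 6565052) had 1907, 404 and 1941 FPKM at 119 DAP, against 0.612, 0.650 and 0.0562 FPKM at 91 DAP. It was almost silent at 91 DAP and among the abundant transcripts of 119 DAP, with a log2 difference of 9.66 ± 0.71 (SE, n = 3 each, adjusted p = 2.46e-06). Its mean was 0.0402 FPKM at 35 DAP, 3.13 FPKM at 63 DAP and 47.1 FPKM at 147 DAP, so the high level belonged to 119 DAP. JreChr07G12722, a gene of the sweep table described below, lies 165996 bases away with no tested gene between them, and it was listed at 27.0, 7.50 and 33.2 FPKM at 119 DAP and at 0 in each 91 DAP library. Both genes had their lowest 119 DAP value in replicate 2.

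JreChr03G12965 (chromosome 3, bases 5355488 to 5355778) had 513, 1372 and 934 FPKM at 119 DAP, against 20.4, 18.8 and 4.04 FPKM at 91 DAP, a log2 difference of 6.08 ± 0.47 (SE, n = 3 each, adjusted p = 3.25e-06). It remained high at 147 DAP, with a mean of 584 FPKM. JreChr01G11586 (chromosome 1, bases 34640542 to 34641144) had 189, 109 and 259 FPKM at 119 DAP, against 1.38, 1.01 and 2.73 FPKM at 91 DAP, a difference of 6.07 (adjusted p = 2.58e-06). JreChr04G12303 (chromosome 4, bases 6742849 to 6755461) had 285, 521 and 229.6 FPKM at 119 DAP, against 8.62, 10.2 and 1.90 FPKM at 91 DAP, a difference of 5.58 (adjusted p = 3.12e-06). JreChr03G12965 and JreChr04G12303 had their highest value in 119 DAP replicate 2, and both kept their call without it, with differences of 5.75 and 5.24. JreChr09G10265 (chromosome 9, bases 12794335 to 12794730) was listed at 51.4, 33.2 and 42.0 FPKM at 119 DAP, and at 0.368, 0.0234 and 0 FPKM at 91 DAP (adjusted p = 7.47e-07).

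Among the largest falls, JreChr10G11118 (chromosome 10, bases 27801468 to 27802365) was listed at 0 in the 3 libraries of 119 DAP, against 56.4, 41.6 and 39.0 FPKM at 91 DAP (adjusted p = 0.00674). It was also listed at 0 in each library of 35 DAP, at 34.1, 0 and 23.3 FPKM at 63 DAP, and at 26.2, 24.3 and 0 FPKM at 147 DAP. JreChr10G11118 thus also had both 0 and values well above it within a stage, and a 0 in an FPKM table can be a failed estimate. JreChr07G11619 (chromosome 7, bases 30419579 to 30420892) fell to 3.47, 6.34 and 2.43 FPKM at 119 DAP, against 120.4, 159 and 178 FPKM at 91 DAP, a log2 difference of -4.97 ± 0.39 (SE, n = 3 each, adjusted p = 3.79e-06). The fall of this gene continued a decline, since its mean was 3036 FPKM at 35 DAP and 885 FPKM at 63 DAP. JreChr04G12308 (chromosome 4, bases 6850108 to 6851489) had declined before as well, from a mean of 2004 FPKM at 35 DAP, and it had 16.1, 35.0 and 12.8 FPKM at 119 DAP, against 232, 229 and 199 FPKM at 91 DAP, a difference of -3.44 (adjusted p = 0.000166). It lies 94646 bases from JreChr04G12303, which moved the other way. JreChr05G10933, with 0.719, 0.803 and 3.15 FPKM at 119 DAP, against 21.3, 23.4 and 36.1 FPKM at 91 DAP, and JreChr02G10326, with 0.165, 1.22 and 0.639 FPKM at 119 DAP, against 18.8, 15.3 and 17.7 FPKM at 91 DAP, differed by -3.54 (adjusted p = 4.34e-06) and -3.49 (adjusted p = 7.47e-07). The levels of both at 147 DAP stayed below those at 91 DAP, with means of 0.445 FPKM and 0.0402 FPKM.

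**Figure D3:**
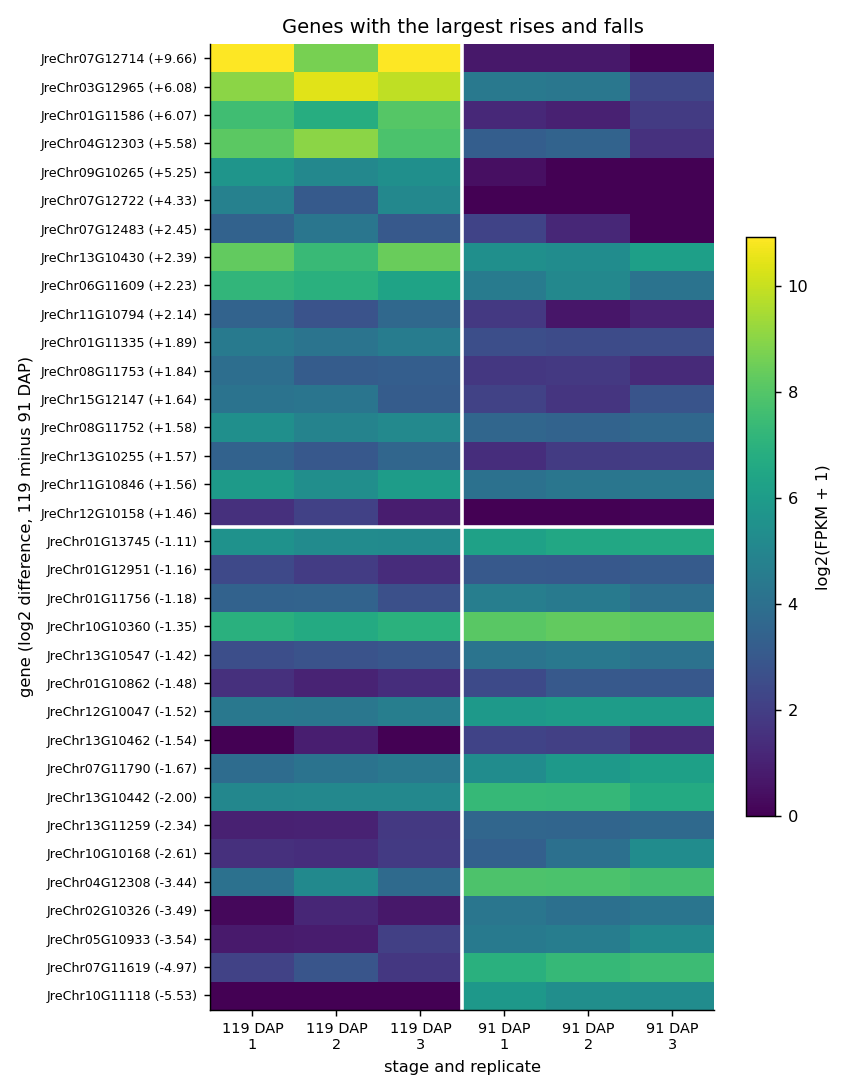
Level as log2(FPKM + 1) (color) of the genes with the largest rises and falls, over all tested genes and among the annotated genes of the study's tables, in the 3 libraries of 119 DAP (left) and the 3 of 91 DAP (right). Genes run from the largest rise (9.66) to the largest fall (-5.53, a gene listed at 0 throughout 119 DAP, whose value depends on the 1 added before the logarithm). In each row the 3 libraries of one stage all lie above the 3 of the other, a condition by which the genes were chosen.

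The study tested whether parts of the walnut genome were under selection, and one of its tables lists the genes in putatively selected regions of JR1, a J. regia population that was set against J. sigillata. Of these genes, 666 were tested here, of which 48 (7.21%) were higher and 56 (8.41%) were lower at 119 DAP. These shares are close to those of all tested genes (9.65% higher and 8.65% lower). Without 119 DAP replicate 2, 52 were higher and 46 lower, against 9.45% and 5.98% of all tested genes. Both fits called 40 of the rises and 41 of the falls. The rises and falls of this table described next were chosen among these, with no overlap between stages as a condition. The called genes ranged from 0.44 to 4.33 for rises and from -0.39 to -2.61 for falls on the log2(FPKM + 1) scale, the upper value being that of JreChr07G12722, which was listed at 0 at 91 DAP.

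JreChr07G12722 led the rises of this table. It is annotated as a carboxyl methyltransferase that uses S-adenosylmethionine, a family that methylates small acids such as salicylate in Arabidopsis, and its adjusted p was 5.44e-06. JreChr13G10430, of glycosyl hydrolase family 16, which includes enzymes that cut and rejoin xyloglucan in the cell wall, had 310.0, 169.9 and 343 FPKM at 119 DAP, against 43.0, 38.9 and 71.2 FPKM at 91 DAP. Its groups stood well apart, with a log2 difference of 2.39 ± 0.25 (SE, n = 3 each, adjusted p = 3.16e-05). JreChr07G12483, annotated as squalene monooxygenase, which acts ahead of sterols and triterpenoids, had 9.84, 18.5 and 7.40 FPKM at 119 DAP, against 3.54, 1.36 and 0.0196 FPKM at 91 DAP, and replicate 3 of 91 DAP was far below the others. Its difference was 2.45 (adjusted p = 0.00129). JreChr01G11335, a pfkB family sugar kinase (1.89, adjusted p = 0.000169), JreChr08G11752, a serine esterase (1.58, adjusted p = 0.00116), and JreChr13G10255, a zinc finger protein (1.57, adjusted p = 0.000755), rose as well.

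The largest fall of the sweep table was that of JreChr10G10168, a GDSL lipase, which had 1.87, 1.73 and 2.65 FPKM at 119 DAP, against 9.11, 15.2 and 38.5 FPKM at 91 DAP. The 91 DAP libraries spread widely, and each still lay above the 119 DAP libraries, with a difference of -2.61 ± 0.38 (SE, n = 3 each, adjusted p = 0.000376). JreChr13G11259, of the lipid transfer protein family, fell to 0.987, 1.09 and 2.55 FPKM at 119 DAP, against 11.3, 10.8 and 12.2 FPKM at 91 DAP (-2.34, adjusted p = 3.16e-05). JreChr13G10442, annotated as a periplasmic beta-glucosidase, fell to 32.1, 33.2 and 33.4 FPKM at 119 DAP, against 157, 153 and 102 FPKM at 91 DAP (adjusted p = 1.04e-05, with a difference of -2.01 without 119 DAP replicate 2). The 119 DAP values of this gene were nearly equal. JreChr12G10047, with an X8 domain, which binds callose in Arabidopsis proteins, had 19.7, 19.3 and 24.6 FPKM at 119 DAP, against 59.1, 65.2 and 62.9 FPKM at 91 DAP, a difference of -1.52. JreChr10G10360, of the harpin-induced family, had 121, 100.1 and 124 FPKM at 119 DAP, against 279, 318 and 284 FPKM at 91 DAP and the lowest adjusted p of these falls (4.34e-06, for a difference of -1.35).

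Smaller falls of the same table were those of JreChr01G10862, a receptor kinase annotated as TMK1 (-1.48), JreChr13G10547, annotated as an expp1 precursor (-1.42), JreChr01G11756, a WD40 repeat protein (-1.18), and JreChr01G12951, annotated as SSE1, a peroxisome biogenesis protein whose loss shrinks seeds in Arabidopsis (-1.16). JreChr13G10462, an expressed protein of unknown role, was listed at 0, 0.893 and 0 FPKM at 119 DAP, against 3.55, 3.21 and 1.44 FPKM at 91 DAP (adjusted p = 0.00699). Each of these 5 genes also passed without 119 DAP replicate 2.

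Transcription factors moved in both directions. Of 30 tested genes with AP2, bZIP, homeobox or MADS domains, 6 rose and 1 fell (23.3% changed, against 18.3% of all tested genes), with a median difference of 0.39, and 5 rises and the fall held in both fits. JreChr08G11753, an AP2 factor, had 14.3, 8.06 and 8.52 FPKM at 119 DAP, against 2.39, 2.50 and 1.43 FPKM at 91 DAP, a log2 difference of 1.84 ± 0.22 (SE, n = 3 each, adjusted p = 9.06e-05). JreChr15G12147, another AP2 factor, had 17.1, 18.1 and 7.97 FPKM at 119 DAP, against 3.45, 2.26 and 6.13 FPKM at 91 DAP, a difference of 1.64 (adjusted p = 0.00803), and its mean at 147 DAP was 59.6 FPKM. The homeobox leucine zipper gene JreChr16G10367 had nearly equal values within each stage, with 23.5, 25.1 and 23.6 FPKM at 119 DAP, against 8.95, 6.98 and 6.49 FPKM at 91 DAP (1.58, adjusted p = 0.00239). The AP2 gene JreChr07G12271 was listed at 1.79, 1.21 and 0.550 FPKM at 119 DAP and at 0 in each 91 DAP library (adjusted p = 0.00105).

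Of the 23 tested MYB genes 1 rose and 1 fell (8.70% changed, against 18.3% of all tested genes), and 4 rose and 1 fell without 119 DAP replicate 2, where 15.4% of all tested genes changed. JreChr15G10243 rose to 5.28, 4.02 and 10.6 FPKM at 119 DAP, against 0.751, 0.456 and 0.592 FPKM at 91 DAP (2.17, adjusted p = 0.000596). JreChr09G10873 fell to 12.6, 11.1 and 8.89 FPKM at 119 DAP, against 25.2, 22.7 and 21.4 FPKM at 91 DAP (-1.03, adjusted p = 0.000352). Of 15 bHLH genes 1 rose and 1 fell. The bHLH gene that rose, JreChr12G10158, was listed at 1.85, 3.28 and 0.811 FPKM at 119 DAP, and at 0, 0 and 0.0663 FPKM at 91 DAP (adjusted p = 0.000499). Of 10 NAC and WRKY genes 1 fell, JreChr15G12139, a WRKY gene at low level (-0.81, adjusted p = 0.00989). The C2H2 zinc finger gene JreChr06G11609, which matches ZAT10, a factor of salt and drought responses in Arabidopsis, was more abundant at 119 DAP than the other factors named here that rose. It had 146, 122 and 80.7 FPKM at 119 DAP, against 22.5, 33.3 and 16.9 FPKM at 91 DAP, a log2 difference of 2.23 ± 0.27 (SE, n = 3 each, adjusted p = 0.000102), and it was 0.599 FPKM at 35 DAP.

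Of the 16 tested genes annotated to hormones other than auxin, 4 rose and 1 fell in both fits (31.2% changed, against 18.3% of all tested genes with all libraries and 15.4% without 119 DAP replicate 2), and 3 of the rises and the fall carry ethylene annotations. JreChr02G10909, an ethylene receptor, fell to 65.7, 42.3 and 73.3 FPKM at 119 DAP, against 95.9, 117 and 140.0 FPKM at 91 DAP, a log2 difference of -0.97 ± 0.20 (SE, n = 3 each, adjusted p = 0.00449). The rises were at low levels. JreChr08G11758, an ethylene-responsive transcription factor, had 3.69, 0.715 and 1.87 FPKM at 119 DAP, against 0.197, 0.497 and 0.0349 FPKM at 91 DAP (1.21, adjusted p = 0.00973). JreChr06G11572 and JreChr06G11631, which match the same Arabidopsis bHLH gene (AT3G19500), rose by 1.37 (adjusted p = 0.00103) and 0.93 (adjusted p = 0.00691), with mean levels of 2.21 FPKM and 1.02 FPKM at 119 DAP. None of the 9 tested auxin genes was called.

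Among 14 tested genes of lipid transfer and GDSL families 2 rose and 3 fell (35.7% changed, against 18.3% of all tested genes), and each call held without 119 DAP replicate 2. The most abundant, JreChr13G10538, a lipid transfer protein gene, had 1037, 849.5 and 1252 FPKM at 119 DAP, against 602, 591 and 601 FPKM at 91 DAP, a log2 difference of 0.79 (adjusted p = 0.00864). JreChr06G11418, of the same family, moved the other way, with 355, 293 and 403 FPKM at 119 DAP, against 542, 553 and 508 FPKM at 91 DAP (-0.62, adjusted p = 0.00578). JreChr08G11341, a GDSL lipase gene, rose by 0.84 (adjusted p = 0.0101), so members of both families went in opposite directions. Of 28 tested genes annotated to fatty acid and lipid metabolism, a list that shares GDSL lipases with the last one, 3 rose and 1 fell (14.3%). JreChr07G11863, a diacylglycerol kinase, which turns diacylglycerol into phosphatidic acid, rose to 9.36, 9.59 and 7.44 FPKM at 119 DAP, against 2.91, 3.78 and 5.14 FPKM at 91 DAP (1.00, adjusted p = 0.00202).

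None of the 5 embryo genes was called with all libraries, against 18.3% of all tested genes, and a missing call does not show equal levels. The late embryogenesis abundant gene was called when 91 DAP replicate 1 was left out. The glutelin JreChr03G12610, a seed storage globulin, had 2475, 7406 and 1325 FPKM at 119 DAP, against 1921, 1159.7 and 1476 FPKM at 91 DAP. The second glutelin, JreChr03G12612, had 3177, 10963 and 1675 FPKM at 119 DAP, against 7096, 3249 and 5236 FPKM at 91 DAP. Both were highest in 119 DAP replicate 2, and their stages overlapped. The oleosin JreChr12G10222, which coats oil bodies, had 433, 927 and 384 FPKM at 119 DAP, against 639, 359.9 and 259.5 FPKM at 91 DAP. JrFAD2 (JreChr13G11197), which desaturates oleate to linoleate, had 225, 591 and 111 FPKM at 119 DAP, against 319, 202 and 123 FPKM at 91 DAP. The late embryogenesis abundant gene JreChr01G10579 had 158, 266 and 109 FPKM at 119 DAP, against 158, 96.5 and 43.5 FPKM at 91 DAP. For each of these 5 genes, 119 DAP replicate 2 held the highest of the 6 values, and the differences with all libraries ran from -0.35 to 0.96.

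Cell wall, sugar and defence lists were small, and their counts stand against 9.65% higher and 8.65% lower among all tested genes. Of the 10 tested genes of the cell wall list 1 fell and 1 rose. This list leaves out JreChr13G10430 and JreChr12G10047, called genes of the sweep table described above. JreChr03G12057, a pectinesterase, which removes methyl groups from pectin, fell to 2.18, 3.03 and 2.20 FPKM at 119 DAP, against 12.3, 13.5 and 15.1 FPKM at 91 DAP (-2.08, adjusted p = 7.98e-05), after a mean of 193 FPKM at 35 DAP. JreChr13G10843, a cellulose synthase-like gene of family A, rose by 0.87 (adjusted p = 0.00854). Of 14 sugar and starch genes 1 rose and 1 fell. JreChr04G11920, a subunit of ADP-glucose pyrophosphorylase, the enzyme that supplies ADP-glucose for starch, had 149, 168 and 139 FPKM at 119 DAP, against 95.1, 96.0 and 89.0 FPKM at 91 DAP, with a difference of 0.70 (adjusted p = 0.00147). Of the 7 tested genes of chitinase and pathogenesis-related families 2 rose with all libraries and 1 without 119 DAP replicate 2. Both rises come from adjoining models on chromosome 1, JreChr01G13933 ending at base 8995643 and JreChr01G13934 starting at base 8995682, so their reads may not be separable. JreChr01G13934 had 22.2, 7.76 and 5.78 FPKM at 119 DAP, against 1.24, 1.85 and 0.788 FPKM at 91 DAP (2.31, adjusted p = 0.00327), and the nearby JreChr01G13930, which matches the same Arabidopsis gene (AT5G24090), did not pass (1.39, adjusted p = 0.0674).

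Of the 12 tested chaperone genes 1 rose and 2 fell, and 2 rose and 2 fell without 119 DAP replicate 2, where 9.45% of all tested genes rose and 5.98% fell. JreChr05G12210, a heat shock protein that matches HSP90.1 of Arabidopsis, fell to 118, 149 and 129 FPKM at 119 DAP, against 515, 624 and 438 FPKM at 91 DAP. Its groups stood far apart, with a log2 difference of -1.97 ± 0.19 (SE, n = 3 each, adjusted p = 1.97e-05), and its mean was 351 FPKM at 147 DAP, again above 119 DAP. JreChr04G12013, a small heat shock protein, had 72.0, 62.2 and 89.7 FPKM at 119 DAP, against 145, 121 and 113 FPKM at 91 DAP (-0.76, adjusted p = 0.00238). The rise of JreChr10G12029, a DnaK family chaperone at low level (0.63, adjusted p = 0.0183), was lost when 119 DAP replicate 1 or 91 DAP replicate 2 was left out.

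Of 59 tested protein kinases 7 rose and 6 fell (22.0%, against 18.3% of all tested genes), and 6 rises and 6 falls held in both fits. JreChr14G11410, a kinase of the WNK family, had 29.5, 32.6 and 28.5 FPKM at 119 DAP, against 7.29, 6.02 and 8.76 FPKM at 91 DAP. Its values were nearly equal within each stage, and its log2 difference was 1.91 ± 0.16 (SE, n = 3 each, adjusted p = 5.22e-06). JreChr03G11951, a protein with a kinase domain, had 72.7, 49.1 and 53.0 FPKM at 119 DAP, against 202, 231 and 233 FPKM at 91 DAP and fell by 1.93 on the log2 scale (adjusted p = 7.8e-06). Of 33 tested transporters 1 rose and 6 fell (3.03% higher and 18.2% lower, against 9.65% and 8.65% of all tested genes). Without 119 DAP replicate 2, 1 rose and 3 fell, where 9.45% of all tested genes rose and 5.98% fell. JreChr16G10419, a MATE efflux gene, rose to 2.72, 1.11 and 3.09 FPKM at 119 DAP, against 0.403, 0.258 and 0.841 FPKM at 91 DAP (1.10, adjusted p = 0.00487). Another MATE gene, JreChr03G12060, fell to 1.05, 1.45 and 1.47 FPKM at 119 DAP, against 2.82, 2.67 and 3.80 FPKM at 91 DAP (-0.81, adjusted p = 0.0032). The phosphate translocator JreChr01G10873 fell as well (-0.76, adjusted p = 0.00178), and the chloride channel gene JreChr03G12424 was called with all libraries (-0.59, adjusted p = 0.0367) but in none of the fits that left out 1 of the 6 libraries. Of 23 ribosomal protein genes 1 rose and 3 fell (against 9.65% higher and 8.65% lower among all tested genes), the most abundant being JreChr13G10333 with 950.0, 1113 and 1075 FPKM at 119 DAP, against 1816, 1786 and 1559 FPKM at 91 DAP (-0.72, adjusted p = 0.00847).

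**Figure D4:**
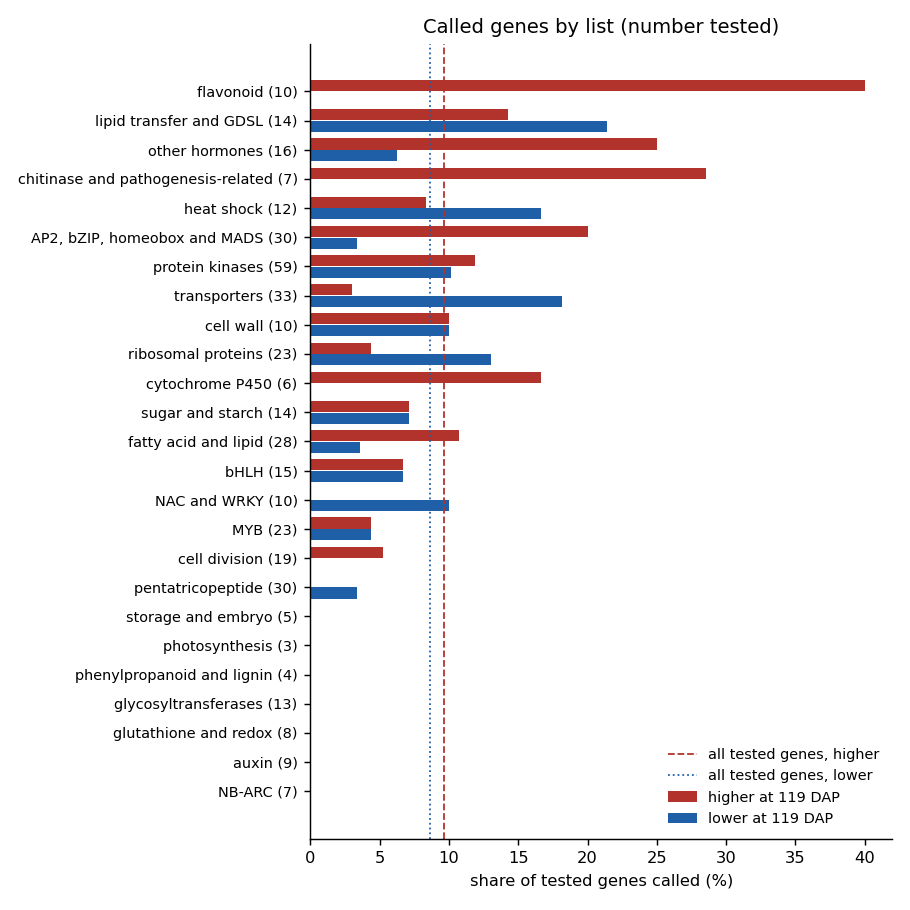
Share of the tested genes of each list that were higher (red) or lower (blue) at 119 DAP than at 91 DAP, in percent (x axis), with the number of tested genes in brackets and lines for all tested genes (9.65% higher, 8.65% lower). The flavonoid list reaches 40.0% higher and 0% lower, the lists at the bottom have no called gene, and a list with only 1 tested gene is left out.

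Another table of the study lists genes whose variants were associated with walnut traits. Of the 121 tested, 7 were higher (5.79%) and 19 lower (15.7%) at 119 DAP, a larger share of falls than among all tested genes (8.65%), a difference that was not tested. Without 119 DAP replicate 2, 4 of the 121 were higher and 12 lower, against 9.45% and 5.98% of all tested genes. Without 91 DAP replicate 2, 17 of the 121 were called, against 2612 of all 22310 tested genes. With all libraries these counts were 26 and 4082, so both fell when this library was left out. Outside the trait described next, the largest falls called in both fits were those of JreChr07G11790, with a trehalose-phosphatase domain, and JreChr01G13745, a BTB-TAZ protein. JreChr07G11790 had 13.6, 16.7 and 20.0 FPKM at 119 DAP, against 38.9, 58.9 and 72.3 FPKM at 91 DAP (-1.67, adjusted p = 0.00578). JreChr01G13745 had 47.1, 37.5 and 36.2 FPKM at 119 DAP, against 75.0, 92.2 and 96.9 FPKM at 91 DAP (-1.11, adjusted p = 0.000303). The stages of both did not overlap, a condition by which they were chosen. JreChr01G12279, annotated as a putative membrane protein, lay between them with all libraries (-1.24, adjusted p = 0.0479) and lost its call without 119 DAP replicate 2 (adjusted p = 0.0555).

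The trait nearest to this tissue is the color of the endopleura, whose associated interval on chromosome 9 holds JrANR. Of its 33 tested genes on this chromosome, between bases 7218944 and 8077651, 3 rose and 8 fell (against 9.65% higher and 8.65% lower among all tested genes), and the 4 tested color genes on chromosome 5 did not pass the test. Without 119 DAP replicate 2, 3 rose and 6 fell, against 9.45% and 5.98% of all tested genes. JrANR had the largest rise of the interval and was also its most abundant gene among those called. Neighbouring genes do not give independent values where transcripts overlap, and the counts are a description. JreChr09G12343, which has no annotation, had the largest fall. It was listed at 0.817, 0.139 and 0 FPKM at 119 DAP, against 4.42, 3.53 and 2.82 FPKM at 91 DAP (adjusted p = 9.06e-05). JreChr09G12365, which lies next to JrANR among the tested genes and is annotated as a phosphosulfolactate synthase-related protein, moved against it, with 77.4, 101 and 77.2 FPKM at 119 DAP, against 161, 151 and 120.2 FPKM at 91 DAP and a log2 difference of -0.75 ± 0.14 (SE, n = 3 each, adjusted p = 0.00225).

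JreChr09G12410, an expressed protein, rose to 17.3, 14.6 and 14.9 FPKM at 119 DAP, against 7.95, 7.60 and 7.77 FPKM at 91 DAP (0.92, adjusted p = 0.00334). JreChr09G12381, a receptor-like kinase of the DUF26 group, fell to 0.921, 0.464 and 0.199 FPKM at 119 DAP, against 1.69, 1.81 and 1.77 FPKM at 91 DAP (-0.88, adjusted p = 0.00235). The bHLH gene of the interval, JreChr09G12373, averaged 14.1 ± 2.23 FPKM at 119 DAP and 23.6 ± 1.66 FPKM at 91 DAP (SD, n = 3 each; difference -0.71, adjusted p = 0.00718). The stages of these genes did not overlap, but only JrANR and JreChr09G12343 differed by more than 1 on the log2 scale.

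**Figure D5:**
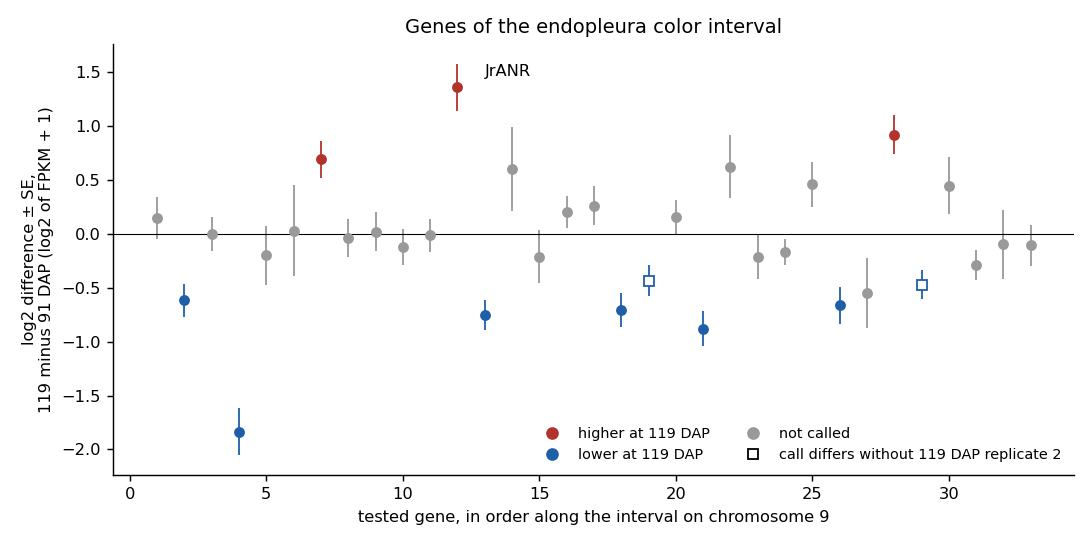
Log2 difference with its standard error (y axis, 119 DAP minus 91 DAP, log2 of FPKM + 1) of the 33 tested genes of the color interval, in their order along chromosome 9 (x axis). JrANR stands highest at 1.36 and JreChr09G12343 lowest at -1.83, and open squares mark the called genes whose call is lost without 119 DAP replicate 2.

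The difference between 147 and 35 DAP was read from other libraries than the difference between 119 and 91 DAP, but all libraries shared the estimate of the spread that decided which genes were called, so the overlap of the calls is a description. Of the 2152 genes higher at 119 DAP, 1213 (56.4%) were also higher at 147 DAP than at 35 DAP, against 24.0% of all tested genes, and 510 (23.7%) were lower, against 43.7%. Of the 1930 genes lower at 119 DAP, 323 (16.7%) were higher and 1089 (56.4%) lower at 147 DAP than at 35 DAP. The highest stage mean of the rises fell at 147 DAP for 1005 genes (46.7%), at 119 DAP for 545 (25.3%) and at 35 DAP for 522 (24.3%). Over all tested genes these shares were 20.6% at 147 DAP, 9.86% at 119 DAP and 40.2% at 35 DAP. For 985 of the falls (51.0%) the highest stage mean was at 91 DAP, against 15.3% of all tested genes. For 611 of the falls (31.7%) it was at 35 DAP, a share below the 40.2% of all tested genes. The call itself bars 91 DAP from being the peak of a rise, and 119 DAP from being the peak of a fall. Endopleura RNA was measured in bulk, so fewer cells of a type and less RNA per cell cannot be told apart in any of these differences.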

How the data were processed

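RNA-seq libraries of Linzaoxiang endopleura were grouped by the stage in the sample labels, with 3 libraries per stage. With HISAT2 (2.1.0) the authors mapped the reads to the J. regia assembly they had built; they quantified genes with StringTie (1.3.5) and deposited FPKM values for 39414 genes, 1 column per library, so replicates were not pooled. Filters, strand handling and scaling between libraries are not given in the sources used here, and transcripts of overlapping or near-identical genes may share reads. Coordinates are those of the deposited table.

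From these values log2(FPKM + 1) was computed, and the 22310 genes that reached 1 FPKM in 3 or more of the 15 libraries were fitted with limma (3.58.1, R 4.3.3; lmFit, eBayes with trend), with 1 coefficient per stage and all 15 libraries sharing the estimate of the spread. The fit was repeated without 119 DAP replicate 2, and 147 against 35 DAP was read from the same model. Benjamini-Hochberg adjustment covered all 22310 genes, with a threshold of 0.05. The script was tested on simulated data. Per gene, an exact permutation test of 3 libraries against 3 cannot go below p = 0.1 and was not used. The absolute depth is unknown, so no counting intervals are given.

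Annotations came from the study's gene tables, as Pfam domains, rice descriptions and Arabidopsis matches, and 26 lists were made from them by domain or description. Named genes were the 5 largest rises and 5 largest falls over all tested genes and the 12 largest of each among annotated genes of the sweep and trait tables, all called in both fits with no overlap between stages. To these were added up to 4 genes with the lowest p per list, all flavonoid and embryo genes, genes the study names, the 3 largest lost and 3 largest gained calls, and the 5 largest called differences among color genes. The comparison, the lists and these rules were chosen with earlier results of these data known. Alternatives covered the pseudocount (0.1), 3 other scalings, the filter, the trend, a replicate block, a fit of only the 6 libraries and leaving out each of the 6 libraries.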

Additional observations from a re-analysis of the deposited data

How the results depend on the processing

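The number of called genes stayed within 1.5 times of 4082 under 8 settings that kept all libraries (3360 to 4570), among them a pseudocount of 0.1 (4122), no filter (3908) and a mean of at least 5 FPKM (3360). A fit of only the 6 libraries gave 1820 of the 22310 genes (1003 higher, 817 lower). Among them were 52 of the 666 tested genes of the sweep table and 11 of the 121 of the trait table. With all libraries, a minimum log2 difference of 1 left 1421 (1023 higher, 398 lower). The trait table had 17 called genes with a mean of at least 5 FPKM. Leaving out 1 library at a time gave 2612 to 3834 genes, 1402 to 2108 of them higher and 1210 to 1813 lower, with 16 to 24 in the trait table. Among the genes named in the text, JreChr03G12442 ran from -0.26 to 0.16, JreChr03G12612 from -1.10 to 0.26 and JreChr13G11197 from -0.34 to 0.87 when 1 library was left out, so their direction was not stable. Of 1254 values of 85 named genes under these settings, 1202 kept direction and call, 38 lost a call, 9 gained one and 5 reversed. The causes were not tested. The correlation of same-numbered deviations was -0.34, 0.15 and 0.31. The deviations of the libraries of a stage are not independent of one another, so these values cannot decide whether replicate numbers pair the libraries. With a replicate block 3610 genes were called (1947 higher, 1663 lower). Deviations of 119 DAP replicate 2 correlated with those of 91 DAP replicate 1 (r = 0.55 across genes). Values under 1 FPKM rest on few reads, and the absolute depth behind them is unknown.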

Other observations

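Called genes were spread over all 16 chromosomes, from 15.6% of the tested genes on chromosome 12 to 20.6% on chromosome 15. The next tested gene along the chromosome was also higher for 282 of 2150 higher genes (13.1%) and also lower for 221 of 1929 lower genes (11.5%), against 9.65% and 8.65% of all tested genes.

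Genes lower at 119 DAP were more abundant than genes higher at 119 DAP, with a median of 21.1 FPKM over the 15 libraries against 13.5 FPKM for the higher genes and 12.5 FPKM for all tested genes. Their genomic span had a median of 2976.5 bases, against 2360.5 bases for the higher genes and 2994 bases for all tested genes. Of the called genes, 3 were listed at 0 in each 119 DAP library and 26 in each 91 DAP library.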
